A study of Mus musculus with 20 samples.

Results

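The chemokines described here are 10 genes, Ccl2, Ccl3, Ccl4, Ccl5, Ccl6, Ccl12, Cxcl10, Cxcl16, Cxcl12 and Cx3cl1, of 24513 genes counted in the mouse hippocampus. They were chosen by name, as ligands of the chemokine family, and Ccl6 was added because of its level in PS19/C3aR KO libraries relative to PS19 libraries. All 10 were among the 16657 genes with enough counts to be tested. RNA carrying poly(A) tails was sequenced from hippocampi of male mice labelled C57BL/6J at 9 months of age, with 5 libraries in each of 4 genotypes. PS19/C3aR KO mice combine the PS19 transgene with the C3aR KO label, PS19 mice carry the transgene alone, C3aR KO mice carry the label alone, and WT mice have neither. PS19 is a human tau transgene that carries a frontotemporal dementia mutation and is driven by the prion protein promoter, and C3aR is the receptor for complement fragment C3a, encoded by C3ar1. No label states whether the libraries of a genotype are different mice, so a p-value here refers to library-to-library spread, some of which could be technical.

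Chemokines are small secreted or membrane-bound proteins that guide the movement of cells by binding G protein-coupled receptors. In the brain, Cx3cl1 (fractalkine) is made by neurons and read by the microglial receptor Cx3cr1, and Cxcl12 is made by vessels, meninges and neurons and read by Cxcr4. Most of the other ligands are induced in microglia, astrocytes and infiltrating leukocytes during inflammation. Ccl2 and Ccl12 act on the monocyte receptor Ccr2, Ccl3 and Ccl5 on Ccr1 among others, Cxcl10 on the T cell receptor Cxcr3, Cxcl16 on Cxcr6, and Ccl6, a rodent ligand of myeloid cells, on Ccr1.

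The 6 CC chemokine genes lie on mouse chromosome 11 (GRCm38, mm10). Ccl2 lies on the plus strand from 82035577 to 82037452 and Ccl12 on the plus strand from 82101845 to 82103399. Ccl5 lies on the minus strand from 83525778 to 83530518 and Ccl6 on the minus strand from 83587886 to 83593087. Ccl3 lies on the minus strand from 83647843 to 83649378. Ccl4 lies on the plus strand from 83648624 to 83664683 and overlaps Ccl3 in RefSeq, though no GENCODE exon bases are shared. Cxcl16 is on the same chromosome from 70454389 to 70459984, minus strand, and shares exon bases with Zmynd15 on the other strand. Cxcl10 lies on chromosome 5 from 92346638 to 92348889, minus strand, and shares exon bases with Art3 on the other strand. Cxcl12 lies on chromosome 6 from 117168535 to 117181368, plus strand, and Cx3cl1 on chromosome 8 from 94772180 to 94782427, plus strand. Whether the counting used strand is not stated. If it did not, reads on the exon bases shared by Cxcl16 and Zmynd15, or by Cxcl10 and Art3, cannot be assigned to 1 gene of the pair.

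RefSeq promoter windows, running from 250 bases before the gene start to 50 bases after it (GRCm38.p6), were matched for 6 of the 10 genes: Ccl3, Ccl6, Ccl12, Cxcl10, Cxcl12 and Cx3cl1. The windows of Cxcl10, Ccl3, Ccl12 and Ccl6 are printed because these genes had their high levels in the PS19 groups. Each runs 5′ to 3′ on the strand of its gene, and capitals mark matches to a kB motif (GGGNNTTCC), an IRF motif (GAAANNGAA) or an AP-1 motif (TGANTCA), searched on both strands. Cxcl10 is chr5:92348840-92349139, Ccl3 chr11:83649329-83649628, Ccl12 chr11:82101595-82101894 and Ccl6 chr11:83593038-83593337. In order, the capitals in Cxcl10 are the IRF motif, the kB motif and the AP-1 motif, and those in Ccl3 are the IRF motif read on the opposite strand.
Cxcl10: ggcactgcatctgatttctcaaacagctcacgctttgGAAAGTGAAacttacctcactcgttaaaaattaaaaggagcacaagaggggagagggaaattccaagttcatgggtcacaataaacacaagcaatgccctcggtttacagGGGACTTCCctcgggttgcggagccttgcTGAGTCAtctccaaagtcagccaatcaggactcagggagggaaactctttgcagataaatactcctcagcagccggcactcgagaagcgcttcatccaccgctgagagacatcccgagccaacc
Ccl3: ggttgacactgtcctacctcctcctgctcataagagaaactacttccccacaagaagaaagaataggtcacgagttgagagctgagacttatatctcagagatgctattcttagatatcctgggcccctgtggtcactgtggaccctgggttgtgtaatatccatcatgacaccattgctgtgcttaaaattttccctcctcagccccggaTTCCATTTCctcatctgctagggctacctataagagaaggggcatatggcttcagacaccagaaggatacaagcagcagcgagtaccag
Ccl12: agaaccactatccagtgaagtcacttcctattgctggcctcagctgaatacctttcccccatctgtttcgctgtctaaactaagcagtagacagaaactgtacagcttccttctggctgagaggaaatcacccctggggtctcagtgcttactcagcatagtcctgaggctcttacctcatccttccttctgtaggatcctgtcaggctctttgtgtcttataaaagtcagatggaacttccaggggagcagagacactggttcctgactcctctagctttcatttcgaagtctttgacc
Ccl6: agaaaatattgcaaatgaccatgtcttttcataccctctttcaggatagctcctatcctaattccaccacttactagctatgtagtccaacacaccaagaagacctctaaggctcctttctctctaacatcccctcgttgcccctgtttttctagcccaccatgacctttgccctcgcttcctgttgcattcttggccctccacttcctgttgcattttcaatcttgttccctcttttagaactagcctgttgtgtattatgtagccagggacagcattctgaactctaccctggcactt

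The Cxcl10 window held 1 match to each motif, with the IRF match from base -213 to -205, the kB match from -103 to -95 and the AP-1 match from -74 to -68 relative to the gene start. Ccl3 held an IRF match from -39 to -31. The windows of Ccl12, Ccl6, Cxcl12 and Cx3cl1 held no match to these letters. Over 32851 mouse promoter windows of the same length, 5.82% held the kB motif, 8.56% the IRF motif and 7.81% the AP-1 motif. A match describes the sequence and is not evidence of binding.

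Gene counts came to between 33885850 and 47828111 per library, and a floor of 3 counts corresponds to 0.0627 to 0.0885 CPM, the count scaled to library size. C3ar1 went against the C3aR KO label, at 17.0 ± 1.58 CPM in PS19/C3aR KO, 10.3 ± 3.43 in PS19, 16.0 ± 1.48 in C3aR KO and 2.09 ± 0.286 in WT libraries (SD, n = 5 each). Directions below therefore belong to the libraries labelled C3aR KO. Prnp, whose promoter drives the transgene, averaged 1897 and 1885 CPM in the PS19/C3aR KO and PS19 groups against 852 CPM in C3aR KO and 888 CPM in WT. Mapt, the mouse tau gene, averaged 609.8 CPM in PS19/C3aR KO, 617.9 in PS19, 559.1 in C3aR KO and 525.3 in WT. Hippocampal excitatory neuron genes were present in every library, with a summed level of 5202 to 8347 CPM over 8 genes. PS19 library 3 stood apart, with neutrophil genes summing to 55.7 CPM against 1.75 to 4.86 CPM in the other 19 libraries. PS19 library 5 had the lowest microglial sum of its group, 421 CPM. Ribosomal precursor Rn45s took 2.31% of counts on average in PS19/C3aR KO, 1.85% in PS19, 1.92% in C3aR KO and 3.59% in WT. In bulk tissue, fewer cells of a type and less RNA per cell cannot be told apart.

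Cxcl16 was higher in PS19 than in WT libraries, and the constitutive brain chemokines Cxcl12 and Cx3cl1 did not pass the test. Another 6 inflammatory chemokines were higher too. The transgenic groups carried those 6 over the low-count filter, so their calls are descriptions. In PS19 minus WT, 7 of the 9 chemokines tested rose and none fell (edgeR quasi-likelihood test, Benjamini-Hochberg adjusted over all genes, adjusted p from 0.000239 to 0.0120), where 7.5% of all tested genes rose and 3.32% fell, 10.8% in all. DESeq2 also called 7 of the 9, where it called 12.8% of genes, and limma-voom called 5. For 6 of the 10 chemokines the PS19 and WT libraries did not overlap, which held in this direction for 5.93% of tested genes. Nothing is read from that count, since of these 6 only Cxcl16 was neither chosen on its PS19 libraries nor carried over the low-count filter by the transgenic groups. Ccl4 had the highest fold change at log2 5.15 (SE 0.71), followed by Cxcl10 at 4.35 (SE 0.88), Ccl3 at 3.73 (SE 0.55), Ccl5 at 3.04 (SE 0.75), Ccl2 at 2.80 (SE 0.63), Ccl12 at 2.61 (SE 0.58) and Cxcl16 at 1.77 (SE 0.29). The median log2 fold change of the 10 chemokines was 2.84, against -0.0068 over all tested genes. Nothing is read from that gap. The transgenic groups carried 6 of the 10 over the filter, and Ccl6 was chosen on its PS19 libraries. Ccl6, described without a test since its choice used the PS19 libraries, differed by log2 2.88 (SE 0.30).

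Of the 10 genes, 6 (Ccl2, Ccl3, Ccl4, Ccl5, Ccl12 and Cxcl10) reached the low-count filter, about 0.258 CPM, only through the libraries with the transgene. Passing this way favours genes that are higher with the transgene. The count of 7 and the p-values of these 6, here and below, are descriptions for that reason. The count stayed at 7 in each of the 20 fits that left out 1 library, which does not lift that limit. With the Rn45s share as a covariate 3 of 9 passed, Ccl3, Ccl4 and Cxcl16, while the calls over all 16657 genes came to 431 with it and 1803 without it. Without WT library 4, Ccl4 was at 6.46, without WT library 3 Ccl2 was at 3.41, and without PS19 library 2 Ccl5 was at 2.21. A filter of 1 CPM in 5 libraries removed Ccl2, Ccl4 and Ccl5 and left 4 calls.

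**Figure D1:**
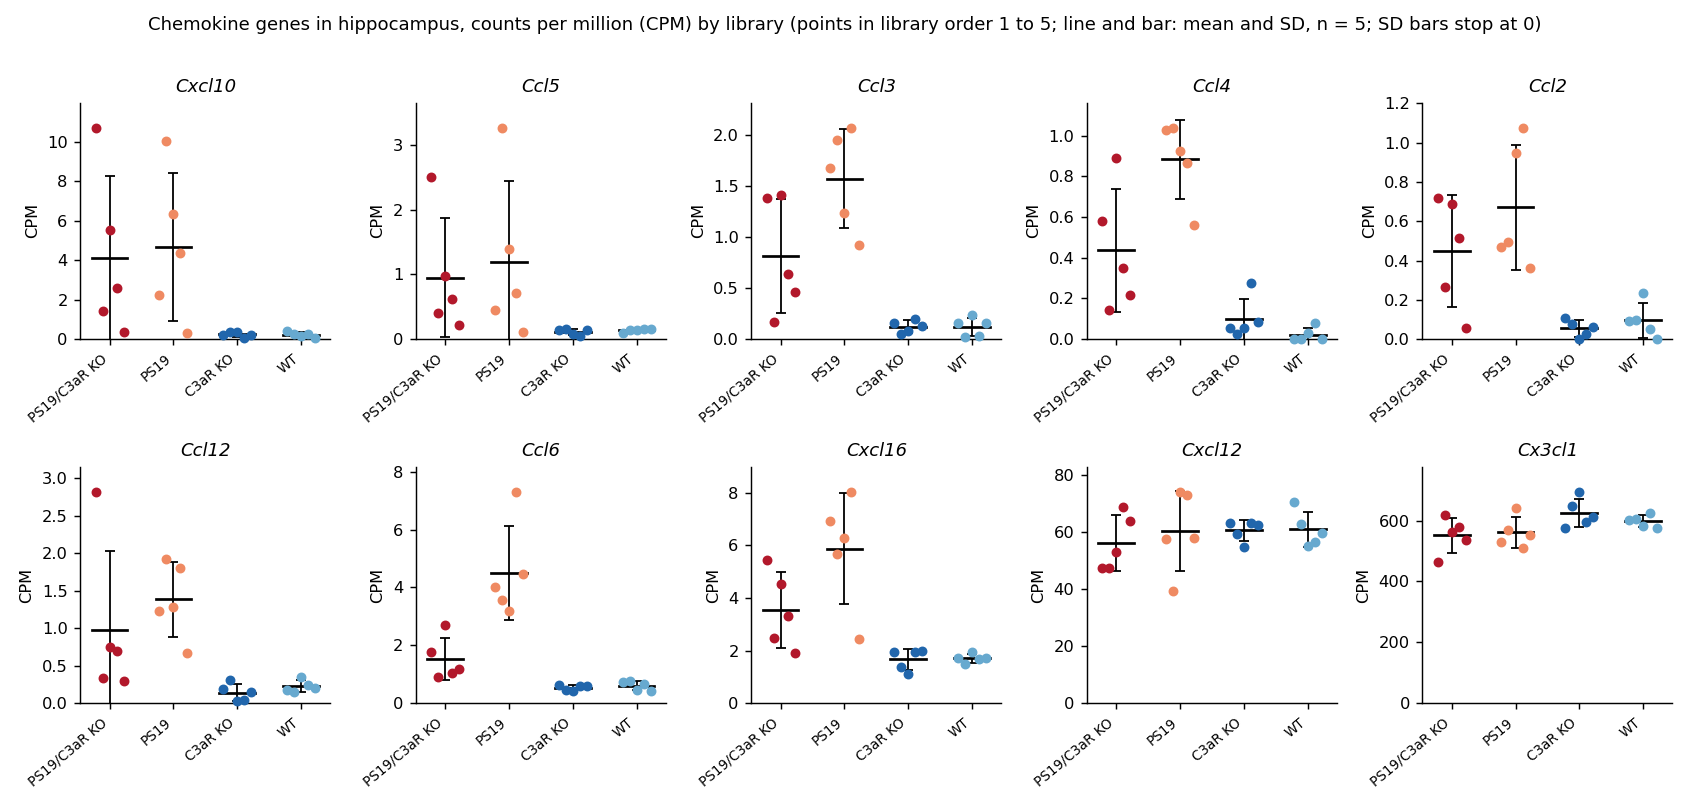
CPM of the 10 chemokine genes (vertical axes from 0) in 5 libraries each of PS19/C3aR KO, PS19, C3aR KO and WT hippocampus, left to right; points are libraries in order 1 to 5, lines are means and bars SDs. Ccl6 in PS19/C3aR KO libraries reached at most 2.70 CPM and lay below all PS19 libraries, while Cxcl12 and Cx3cl1 overlapped between all groups.

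The ligands of Ccr2 were scarce without the transgene. Ccl2, which attracts monocytes, had 0.718, 0.264, 0.690, 0.515 and 0.0543 CPM in PS19/C3aR KO libraries 1 to 5 and 0.470, 0.494, 0.949, 1.07 and 0.364 CPM in PS19 libraries 1 to 5. It had 0.107, 0.0764, 0, 0.0250 and 0.0626 CPM in C3aR KO libraries and 0.0920, 0.0975, 0.237, 0.0531 and 0 CPM in WT libraries. PS19 libraries lay above all WT libraries without overlap, and PS19/C3aR KO library 5 fell within the C3aR KO range. The PS19 rise had an edgeR adjusted p of 0.00702, and the difference between PS19/C3aR KO and C3aR KO was log2 2.96 (SE 0.69, edgeR adjusted p = 0.121). Both p-values are limited, since Ccl2 reached the filter only through the transgenic groups.

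Ccl12, a mouse Ccr2 ligand close to Ccl2, had 2.81, 0.336, 0.748, 0.701 and 0.299 CPM in PS19/C3aR KO libraries and 1.23, 1.93, 1.29, 1.81 and 0.672 CPM in PS19 libraries. Values were 0.188, 0.306, 0.0269, 0.0501 and 0.146 CPM in C3aR KO libraries and 0.184, 0.146, 0.356, 0.239 and 0.208 CPM in WT libraries. PS19/C3aR KO library 1 alone exceeded every PS19 library, and the other 4 PS19/C3aR KO libraries lay at or below 0.748 CPM. Ccl12 rose in PS19 over WT (edgeR adjusted p = 0.00614), and between PS19/C3aR KO and C3aR KO it differed by log2 2.73 (SE 0.61, edgeR adjusted p = 0.0996). The limit given for Ccl2, passing the filter through the transgenic groups, holds for Ccl12 too.

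The macrophage inflammatory proteins Ccl3 and Ccl4 lie side by side, and Ccl4 had the highest fold change of the 10 in PS19 minus WT. Ccl3, which attracts monocytes and macrophages, had 1.38, 0.168, 1.41, 0.639 and 0.462 CPM in PS19/C3aR KO libraries and 1.68, 1.95, 1.24, 2.07 and 0.923 CPM in PS19 libraries. C3aR KO libraries had 0.161, 0.0510, 0.0807, 0.200 and 0.125 CPM, and WT libraries had 0.153, 0.0244, 0.237, 0.0266 and 0.156 CPM. PS19 and WT libraries were separate, while PS19/C3aR KO libraries reached into the PS19 range in libraries 1 and 3 and into the C3aR KO range in library 2. Ccl3 rose in PS19 (edgeR adjusted p = 0.000362) and differed by log2 2.67 (SE 0.55, edgeR adjusted p = 0.0921) between PS19/C3aR KO and C3aR KO. Its p-values are limited by a filter passed only through the transgenic groups.

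Ccl4, its neighbour on chromosome 11, was nearly absent from WT libraries, with 4 counts in all. It had 0.580, 0.144, 0.891, 0.350 and 0.217 CPM in PS19/C3aR KO libraries and 1.03, 1.04, 0.922, 0.865 and 0.560 CPM in PS19 libraries. C3aR KO libraries had 0.0536, 0.0255, 0.0538, 0.275 and 0.0835 CPM, and WT libraries had 0, 0, 0.0297, 0.0797 and 0 CPM. PS19 had the highest mean, its 5 libraries lay above all WT libraries, and C3aR KO library 4 lay within the PS19/C3aR KO range. Summed counts were 176 in PS19 and 4 in WT, a depth-corrected ratio of 42.7 with an exact 95% interval of 16.4 to 159 that covers counting error only. Ccl4 rose in PS19 (edgeR adjusted p = 0.000239), and PS19/C3aR KO minus C3aR KO was log2 2.09 (SE 0.58, edgeR adjusted p = 0.192). Like Ccl3, it passed the filter only through the transgenic groups, which limits these p-values.

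Ccl5, which attracts T cells and monocytes, varied widely within the transgenic groups, 11.6-fold between libraries in PS19/C3aR KO and 29.1-fold in PS19. It had 2.51, 0.408, 0.978, 0.618 and 0.217 CPM in PS19/C3aR KO libraries and 0.448, 3.26, 1.40, 0.708 and 0.112 CPM in PS19 libraries. C3aR KO libraries had 0.134, 0.153, 0.0807, 0.0501 and 0.146 CPM, and WT libraries had 0.0920, 0.146, 0.148, 0.159 and 0.156 CPM. PS19 library 5 fell inside the WT range, whereas the lowest PS19/C3aR KO library lay above all C3aR KO libraries. The rise in PS19 passed by edgeR (adjusted p = 0.0120) and not by limma-voom (adjusted p = 0.103), and PS19/C3aR KO minus C3aR KO was log2 3.01 (SE 0.77, edgeR adjusted p = 0.154). These p-values are limited, since the transgenic groups alone carried Ccl5 over the filter.

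Cxcl10, the interferon-induced ligand of Cxcr3 whose promoter window held all 3 motifs, had the widest range between libraries of any of the 10 chemokines in both transgenic groups. It had 10.7, 1.44, 5.52, 2.58 and 0.353 CPM in PS19/C3aR KO libraries and 2.26, 10.03, 6.33, 4.35 and 0.308 CPM in PS19 libraries. C3aR KO libraries had 0.188, 0.382, 0.376, 0.0751 and 0.209 CPM, and WT libraries had 0.429, 0.244, 0.178, 0.239 and 0.0520 CPM. Library 5 of each transgenic group lay within the range of its control group, and the other 4 of each lay above it. Within PS19/C3aR KO the highest library was 30.3 times the lowest, and within PS19 it was 32.6 times the lowest. The rise in PS19 had an edgeR adjusted p of 0.0032 (limma-voom 0.0867), and PS19/C3aR KO minus C3aR KO was log2 4.05 (SE 0.86, edgeR adjusted p = 0.0942). As for Ccl5, passing the filter only through the transgenic groups limits these p-values.

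Cxcl16, a transmembrane chemokine and scavenger receptor read by Cxcr6, was present in every group. It had 5.44, 2.50, 4.54, 3.32 and 1.90 CPM in PS19/C3aR KO libraries and 6.92, 5.66, 6.30, 8.02 and 2.43 CPM in PS19 libraries. C3aR KO libraries had 1.96, 1.38, 1.13, 1.95 and 1.98 CPM, and WT libraries had 1.72, 1.49, 1.96, 1.70 and 1.71 CPM. All PS19 libraries exceeded all WT libraries, with library 5 closest to them. The PS19 rise passed with an edgeR adjusted p of 0.00075, and this gene met the low-count filter in every group. Between PS19/C3aR KO and C3aR KO it differed by log2 1.07 (SE 0.29, edgeR adjusted p = 0.182).

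Ccl6 was the only one of the 10 chemokines whose PS19/C3aR KO and PS19 libraries did not overlap, and it was chosen for its lower level there. It had 1.77, 0.912, 2.70, 1.05 and 1.19 CPM in PS19/C3aR KO libraries and 4.03, 3.58, 3.19, 7.29 and 4.45 CPM in PS19 libraries. C3aR KO libraries had 0.643, 0.459, 0.430, 0.601 and 0.605 CPM, and WT libraries had 0.736, 0.756, 0.474, 0.664 and 0.416 CPM. PS19 libraries were the highest, and PS19/C3aR KO libraries lay between them and those of C3aR KO and WT, which overlapped each other. Summed counts were 291 in PS19/C3aR KO and 883 in PS19, a depth-corrected ratio of 0.329. It is a description, since Ccl6 was chosen on this comparison. The log2 fold change was -1.57 (SE 0.27) in PS19/C3aR KO minus PS19, and -1.67 without PS19 library 3, which carried the neutrophil genes. In C3aR KO minus WT, the comparison that its choice did not use, Ccl6 differed by log2 -0.15 (SE 0.31, edgeR adjusted p = 0.969).

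Cxcl12, the ligand of Cxcr4, was abundant in every library. It had 47.5, 47.7, 53.3, 68.9 and 64.0 CPM in PS19/C3aR KO libraries, 57.6, 39.5, 74.1, 73.1 and 57.9 CPM in PS19 libraries, 63.4, 59.3, 54.8, 63.4 and 62.6 CPM in C3aR KO libraries and 70.6, 62.8, 55.3, 56.6 and 60.0 CPM in WT libraries. The 4 groups overlapped, and the spread was widest in PS19. PS19 minus WT gave a log2 value of -0.01 (SE 0.14), with an edgeR adjusted p of 0.967. The value between PS19/C3aR KO and C3aR KO was -0.11 (SE 0.14), with an edgeR adjusted p of 0.896. Cxcl12 in PS19 minus WT changed sign when WT library 1 or PS19 library 1, 2 or 5 was left out.

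Cx3cl1, the neuronal ligand that signals to microglia, was the most abundant chemokine. It had 463, 617, 562, 578 and 535 CPM in PS19/C3aR KO libraries, 529, 569, 641, 511 and 554 CPM in PS19 libraries, 576, 646, 693, 594 and 613 CPM in C3aR KO libraries and 601, 605, 582, 625 and 575 CPM in WT libraries. Groups overlapped in every comparison. PS19 minus WT gave a log2 value of -0.09 (SE 0.07), with an edgeR adjusted p of 0.473. The value between PS19/C3aR KO and C3aR KO was -0.18 (SE 0.07), with an edgeR adjusted p of 0.384.

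Per kilobase of exon, Cx3cl1 stood at 140.3 ± 14.6 CPM in PS19/C3aR KO, 142.7 ± 12.7 in PS19, 158.9 ± 11.8 in C3aR KO and 152.1 ± 5.01 in WT, far above all other chemokines. Cxcl12 came next at 6.88 ± 1.19, 7.40 ± 1.73, 7.43 ± 0.451 and 7.47 ± 0.747 CPM per kilobase in the same 4 groups, also without overlap with the next gene. Below them in PS19/C3aR KO came Cxcl10, Ccl12, Cxcl16, Ccl3, Ccl5, Ccl6, Ccl4 and Ccl2, from 1.83 down to 0.394 CPM per kilobase, with every pair of neighbours overlapping. In PS19 the order was Ccl12, Ccl6, Cxcl10, Ccl3, Cxcl16, Ccl4, Ccl5 and Ccl2, from 2.58 down to 0.589, again with overlap between neighbours. In C3aR KO Cxcl16 led this lower group at 0.556 CPM per kilobase and stood above Ccl6 without overlap, and the rest overlapped from Ccl6 at 0.305 to Ccl2 at 0.0477. In WT it led at 0.568, and neighbours overlapped from there to Ccl4 at 0.0331.

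**Figure D2:**
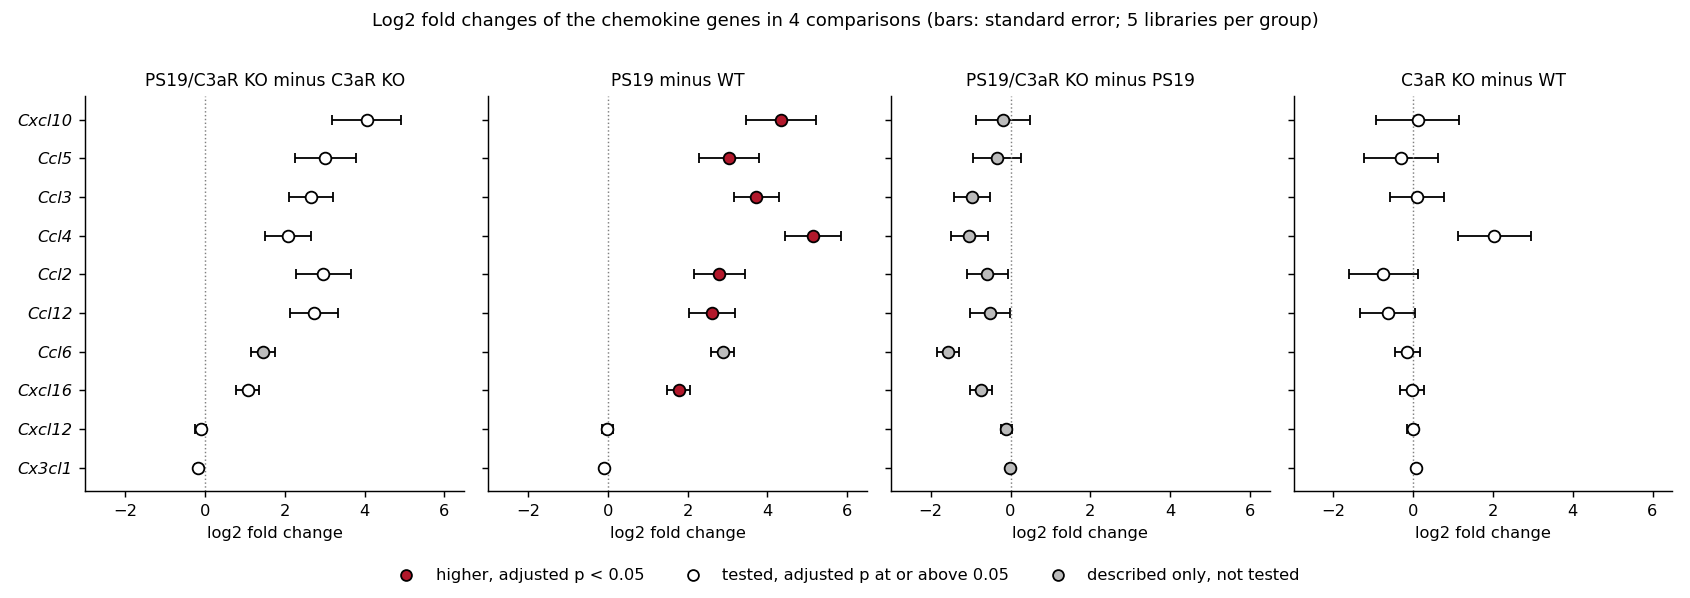
Log2 fold changes (horizontal axes) of the 10 chemokines in 4 comparisons, with standard errors as bars and 5 libraries per group; filled red points passed at an adjusted p below 0.05, open points were tested and did not pass, and grey points are described without a test. The 7 red points are all in PS19 minus WT, and all 10 grey points of PS19/C3aR KO minus PS19 lie below 0. In that comparison Ccl5, Cxcl10, Cxcl12 and Cx3cl1 lie closer to 0 than their standard errors.

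The comparison of PS19/C3aR KO with C3aR KO asks what the tau transgene changed in libraries labelled C3aR KO. None of the 9 chemokines tested passed by edgeR, with adjusted p from 0.0921 to 0.896, in a comparison where 0.006% of all tested genes passed, which is 1 gene, Prnp. At an unadjusted p below 0.05 there were 8, of which Cx3cl1 was the one with a negative fold change, and 1617 of the 16657 genes. DESeq2 called 7 of the 9, where it called 0.928% of all genes, and limma-voom called none. Of those 7, 6 passed the low-count filter only through the transgenic groups, which favours genes that are higher there. Nothing is read from their count for that reason. The median log2 fold change of the 10 chemokines was 2.38, against -0.0015 over all tested genes. Nothing is read from this gap either, for the same reason and because Ccl6 was chosen on its PS19/C3aR KO libraries. Ccl5 and Ccl6 had groups that did not overlap, which held in this direction for 1.3% of tested genes. Ccl5 was carried over the filter by the transgenic groups and Ccl6 was chosen on these libraries, so nothing is read from this overlap.

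Calls in that comparison moved with single libraries, for all genes as for the chemokines. Without PS19/C3aR KO library 2 there were 3 calls, Ccl3, Ccl12 and Cxcl10, and without PS19/C3aR KO library 5 there were 2, Ccl2 and Cxcl10. Over all genes there were 68 calls without the first of these libraries and 24 without the other, against 1 with all libraries. Without PS19 library 5, which is in neither group and enters through the shared estimate of spread, there were 5, Ccl3, Ccl5, Ccl12, Cxcl10 and Cxcl16, and 105 over all genes. Each of the other 17 such fits gave 0 calls among the 9.

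The comparison of C3aR KO with WT asks what the label changed without the transgene. None of the 10 chemokines passed by edgeR (adjusted p from 0.801 to 0.998), DESeq2 or limma-voom, where 0.06% of all tested genes passed by edgeR and 0.304% by DESeq2. No chemokine had groups that did not overlap, which held for 0.702% of tested genes with C3aR KO higher and 0.54% with C3aR KO lower. At an unadjusted p below 0.05 there was 1, Ccl4, with a log2 fold change of 2.03 (SE 0.91) that rests on 20 counts in C3aR KO and 4 in WT. Over all 16657 genes, 999 had such a p. Of the 10 fold changes, 4 were above 0 and 6 below, with a median of -0.02. The direction of the label was not that of C3ar1, which was 16.0 CPM in C3aR KO and 2.09 CPM in WT.

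PS19/C3aR KO minus PS19 is the comparison behind the choice of Ccl6, so the values are given without a test. Over all tested genes, 0.252% passed by edgeR and 2.83% by DESeq2. All 10 log2 fold changes were below 0, with a median of -0.55, against -0.0041 over all tested genes. Nothing is read from this count or gap, since the choice used this comparison. After Ccl6 at -1.57 (SE 0.27) came Ccl4 at -1.03 (SE 0.46), Ccl3 at -0.97 (SE 0.45), Cxcl16 at -0.73 (SE 0.28), Ccl2 at -0.58 (SE 0.51), Ccl12 at -0.51 (SE 0.50) and Ccl5 at -0.34 (SE 0.61). Cxcl10 at -0.18 (SE 0.68), Cxcl12 at -0.10 (SE 0.14) and Cx3cl1 at -0.02 (SE 0.07) were closest to 0. Libraries overlapped between these groups for every chemokine but Ccl6, and 1.58% of all tested genes had PS19/C3aR KO libraries wholly below PS19 libraries. Without PS19 library 2, Ccl5 was at 0.49 and Cxcl10 at 0.31. Cxcl10 was at 0.04 without PS19/C3aR KO library 2 and at 0.12 without PS19/C3aR KO library 5, and at 0.05 with the Rn45s share as a covariate. Cx3cl1 was at 0.03 without PS19/C3aR KO library 1 or PS19 library 3. Without PS19/C3aR KO library 1, Ccl12 was at -1.41, Ccl5 at -1.10 and Cxcl10 at -0.92.

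Set side by side, the effect of the transgene in libraries labelled C3aR KO and in the others was 2.09 and 5.15 for Ccl4, 2.67 and 3.73 for Ccl3, 1.46 and 2.88 for Ccl6 and 1.07 and 1.77 for Cxcl16, on the log2 scale. For Ccl2 it was 2.96 and 2.80, for Ccl12 2.73 and 2.61, for Ccl5 3.01 and 3.04 and for Cxcl10 4.05 and 4.35. Single libraries moved several of these values. Without PS19/C3aR KO library 1, the effect in libraries labelled C3aR KO was 1.84 for Ccl12, 2.25 for Ccl5 and 3.32 for Cxcl10, and without C3aR KO library 4 it was 2.89 for Ccl4. In the others, it was 2.21 for Ccl5 without PS19 library 2 and 6.46 for Ccl4 without WT library 4. These differences between effects were not tested, because they contain the comparison used for the choice.

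**Figure D3:**
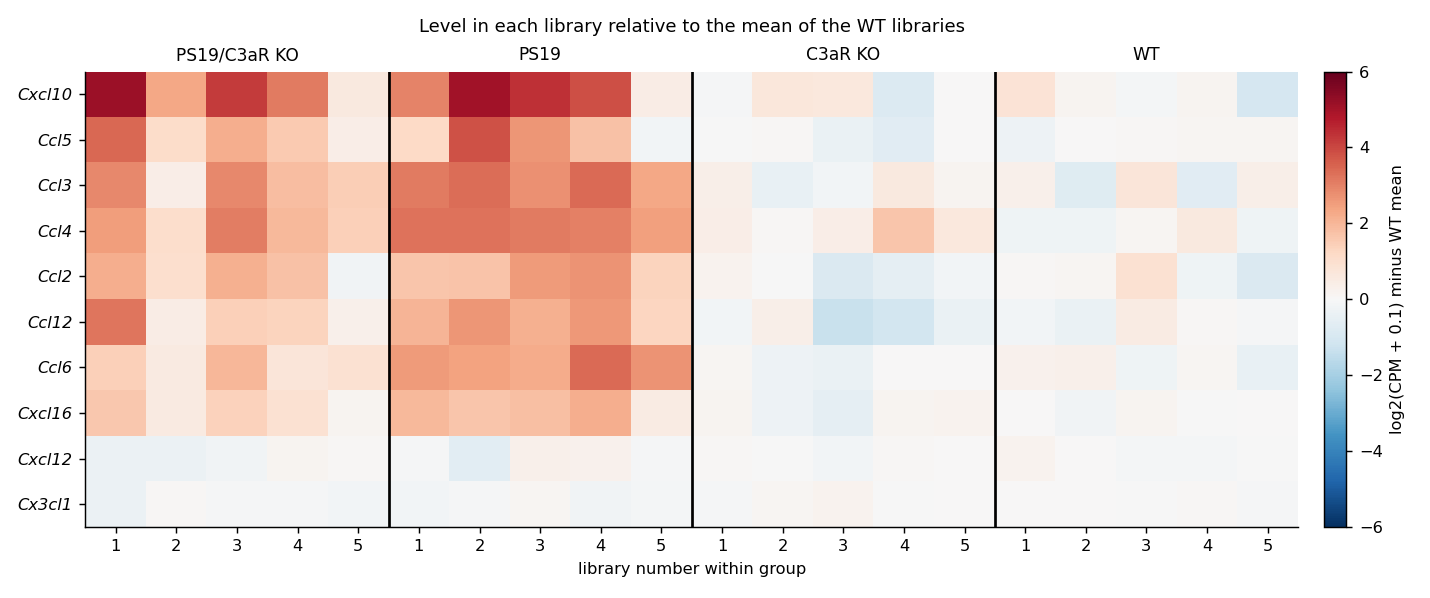
Level of each chemokine (rows) in each of the 20 libraries (columns, numbered within PS19/C3aR KO, PS19, C3aR KO and WT), as log2(CPM + 0.1) minus the mean of the WT libraries; red is higher and blue lower. Library 5 of both transgenic groups is pale for Cxcl10 and Ccl5, and the rows of Cxcl12 and Cx3cl1 are pale throughout.

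In all 4 genotypes some libraries were the highest or the lowest of their group for several chemokines. Library 1 of PS19/C3aR KO had the highest level of its group for 5 of the 10 genes, and library 5 the lowest for 5. In PS19, libraries 2 and 4 were each the highest for 4 genes and library 5 the lowest for 7. In C3aR KO, library 3 was the lowest for 5, and in WT library 5 was the lowest for 5 and library 3 the highest for 4. For Ccl4, 1 of the genes lowest in WT library 5, WT libraries 1, 2 and 5 were tied at 0 counts. After each genotype mean was removed, 33 of the 45 pairs of chemokines had a Pearson r above 0 over the 20 libraries, with a median of 0.34. Ccl5 with Cxcl10 had the highest (r = 0.87, Spearman rho = 0.72, and r = 0.79 over 18 libraries without the 2 farthest for Ccl5). Ccl3 with Cx3cl1 had the lowest (r = -0.60, rho = -0.55, and r = -0.53 over 18 libraries). These are descriptions over libraries that share their depth and cell makeup across genes.

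Among 13434 other genes of at least moderate level, the genes most like each chemokine within genotypes were listed over the same 20 libraries. Cxcl10 was closest to the interferon-induced genes Isg15 (r = 0.92), Gbp3 (r = 0.92) and Ifit1 (r = 0.92). Ccl5 was closest to Iigp1 (r = 0.92), an interferon-induced GTPase, Irgm1 (r = 0.91) and Fcgr1 (r = 0.91). For Ccl12 they were Aspg (r = 0.87), Tap1 (r = 0.82) and Cdh23 (r = 0.80), for Ccl2 Cd44 (r = 0.81), S100a11 (r = 0.78) and Kcne1l (r = 0.77), and for Ccl3 complement C3 (r = 0.82), Lap3 (r = 0.82) and Vwa5a (r = 0.81). Cxcl16 was closest to S1pr3 (r = 0.94), Vim (r = 0.93) and Apoe (r = 0.93). Cxcl12 was closest to the endothelial genes Cdh5 (r = 0.85) and Flt1 (r = 0.85) and to Nkd1 (r = 0.84). Cx3cl1 was closest to the neuronal activity gene Egr3 (r = 0.95), Adrbk1 (r = 0.92) and Tacc1 (r = 0.90). The lowest likeness was that of Ccl4, with Phkg1 (r = 0.80), Fam46c (r = 0.78) and Cebpa (r = 0.75), and of Ccl6, with Pcdhga7 (r = 0.74), Fam46c (r = 0.70) and Haus7 (r = 0.67).

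Some receptors of these ligands also rose in PS19 over WT, where 7.5% of all tested genes rose and 3.32% fell. Of 12 chemokine receptors tested, of 19 in the files, 3 rose in PS19 minus WT and none fell, with a median log2 fold change of 0.53, and none passed in PS19/C3aR KO minus C3aR KO. Cx3cr1, the microglial fractalkine receptor, averaged 67.9 ± 14.5 CPM in PS19/C3aR KO, 98.7 ± 24.5 in PS19, 50.6 ± 2.43 in C3aR KO and 52.5 ± 5.74 in WT (SD, n = 5 each). It rose in PS19 by log2 0.91 (SE 0.15, edgeR adjusted p = 0.000888), while its ligand Cx3cl1 did not pass. Cxcr4 averaged 3.81 ± 0.861, 5.19 ± 1.14, 2.77 ± 0.584 and 3.03 ± 0.499 CPM in PS19/C3aR KO, PS19, C3aR KO and WT, and rose in PS19 by 0.78 (SE 0.19, edgeR adjusted p = 0.0120).

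**Figure D4:**
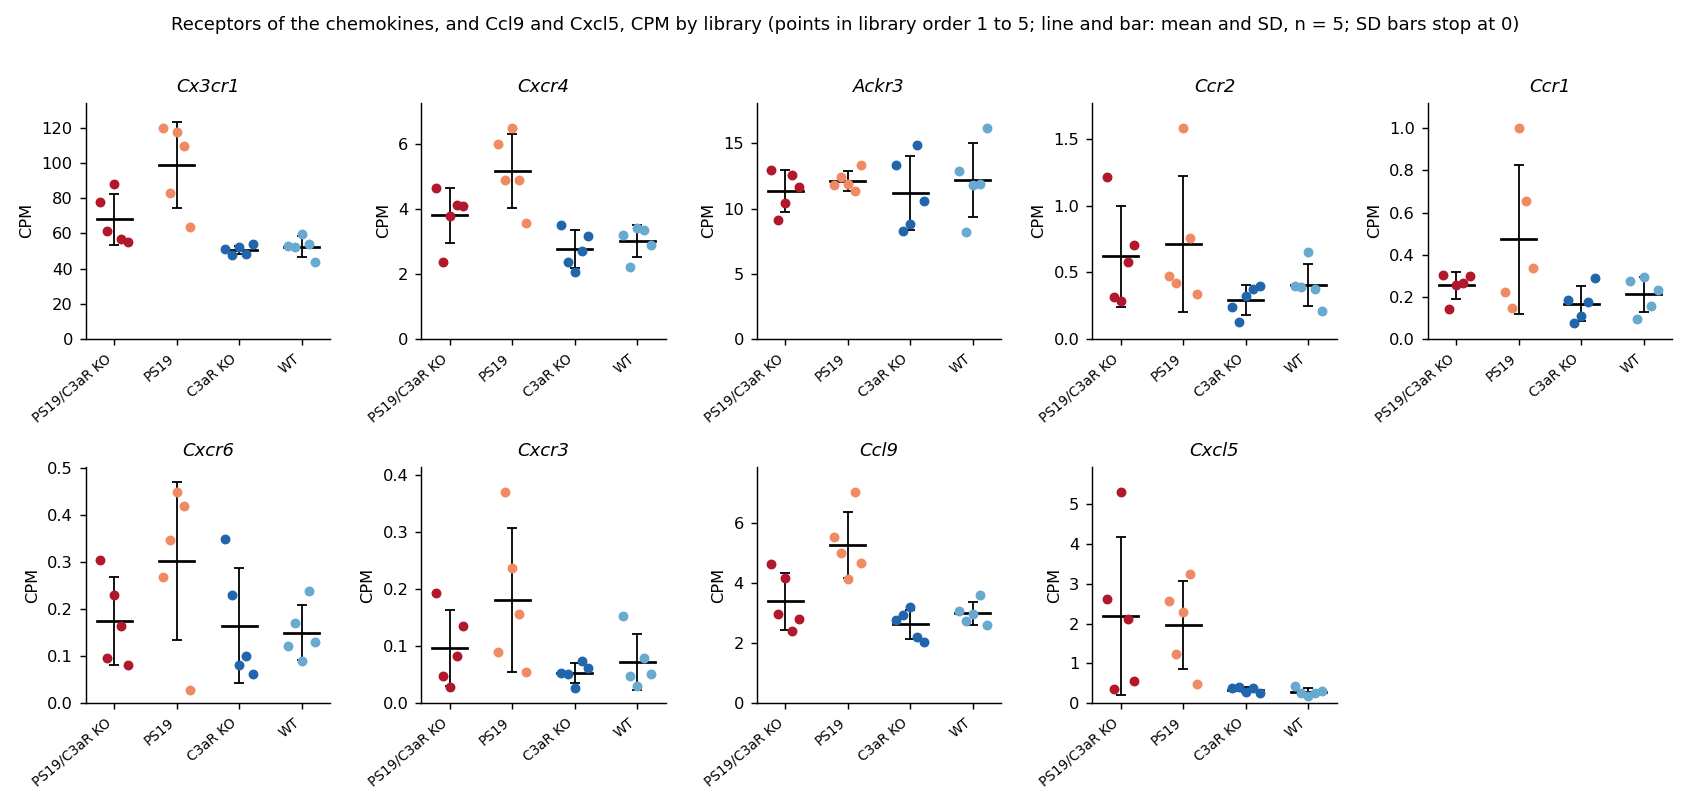
CPM of 7 receptors of the chemokines and of the ligands Ccl9 and Cxcl5 (vertical axes from 0) in 5 libraries each of PS19/C3aR KO, PS19, C3aR KO and WT, left to right, with mean and SD. Cx3cr1 lies between 63.5 and 119.8 CPM in PS19 libraries and between 43.8 and 59.8 CPM in WT libraries.

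The receptors known from monocytes and T cells were scarce. Ccr2 averaged 0.619 ± 0.377 CPM in PS19/C3aR KO, 0.713 ± 0.511 in PS19, 0.293 ± 0.110 in C3aR KO and 0.404 ± 0.159 in WT, and PS19 minus WT was log2 0.82 (SE 0.45, edgeR adjusted p = 0.282). Its highest PS19 value, 1.58 CPM, was that of library 3, which carried the neutrophil genes. Ccr1 was at 0.255, 0.473, 0.168 and 0.213 CPM and Cxcr6 at 0.175, 0.302, 0.164 and 0.150 CPM in PS19/C3aR KO, PS19, C3aR KO and WT, and neither passed (edgeR adjusted p = 0.119 for Ccr1 and 0.26 for Cxcr6 in PS19 minus WT). Cxcr3, the receptor of Cxcl10, was below the low-count filter, with 19, 36, 11 and 13 summed counts in the same order of groups. Ackr3, which takes up Cxcl12, averaged 11.4, 12.2, 11.2 and 12.2 CPM and did not pass in any comparison. Ackr1, which binds many chemokines, was lower in PS19 than in WT, at 25.5 ± 1.94 against 30.5 ± 1.37 CPM (log2 -0.26, SE 0.07, edgeR adjusted p = 0.0325), alone among 5 atypical receptors.

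Of 31 other chemokine ligands in the files, 13 reached the filter and 2 of these rose in PS19 minus WT, with a median of 0.82 over the 13. Ccl9, a Ccr1 ligand of mouse myeloid cells, averaged 3.40 ± 0.954 CPM in PS19/C3aR KO, 5.27 ± 1.10 in PS19, 2.63 ± 0.489 in C3aR KO and 2.99 ± 0.393 in WT. It rose in PS19 by log2 0.82 (SE 0.18, edgeR adjusted p = 0.00653). Cxcl5, which attracts neutrophils through Cxcr2, averaged 2.19 ± 1.99, 1.97 ± 1.10, 0.341 ± 0.0653 and 0.291 ± 0.0916 CPM and rose in PS19 by 2.75 (SE 0.61, edgeR adjusted p = 0.00635). Over the 30 tested ligands and receptors outside the 10 chemokines, 5 rose and 1 fell in PS19 minus WT. Of all tested genes, 7.5% rose and 3.32% fell. None of the 30 passed by edgeR in the other comparisons. DESeq2 called 3 in PS19/C3aR KO minus C3aR KO, 3 in PS19/C3aR KO minus PS19 and 0 in C3aR KO minus WT. Over all genes it called 0.928%, 2.83% and 0.304%. At an unadjusted p below 0.05 there were 8, 5 and 2 in the same order, against 1617, 2416 and 999 of all 16657 genes. Of the 30, 5 reached the filter only through the transgenic groups.

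Some genes that process, transmit or induce chemokines also rose in PS19 minus WT, where 7.5% of all tested genes rose and 3.32% fell. Of 6 processing genes 4 rose, with a median log2 fold change of 0.34. They were Rhbdf2 at 0.80 (SE 0.14, edgeR adjusted p = 0.00119), Adam17 at 0.44 (SE 0.10, adjusted p = 0.00558), Rhbdf1 at 0.45 (SE 0.12, adjusted p = 0.0252) and Adam10 at 0.15 (SE 0.05, adjusted p = 0.0341). Adam10 and Adam17 are the proteases that shed Cx3cl1, and Rhbdf1 and Rhbdf2 carry Adam17 to the cell surface. Of 14 chemotaxis signalling genes 10 rose, with a median of 0.92, among them Dock2, which activates Rac (log2 1.34, edgeR adjusted p = 0.000272), Rac2 (1.08, adjusted p = 0.000365), the kinase Fgr (3.55, adjusted p = 0.000626) and Vav1 (1.27, adjusted p = 0.00082).

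Of 17 NF-kB pathway genes 7 rose in PS19 minus WT, with a median of 0.29, where 7.5% of all tested genes rose. Bcl3, a nuclear partner of NF-kB, rose by 2.72 (edgeR adjusted p = 0.000508), Il1b by 1.98 (adjusted p = 0.000813), Nfkb2 by 0.99 (adjusted p = 0.00157) and Il1a by 1.58 (adjusted p = 0.00161). Of 10 interferon signalling genes 8 rose, with a median of 1.47. Ifit3 rose by 2.23 (edgeR adjusted p = 0.00297), Irf7 by 2.12 (adjusted p = 0.00518), and Irf9 by 1.01 (adjusted p = 0.0108). No gene of these 4 lists passed by edgeR in the other 3 comparisons. At an unadjusted p below 0.05, PS19/C3aR KO minus C3aR KO had 2 processing, 8 chemotaxis, 4 NF-kB and 7 interferon genes, and DESeq2 called 0, 3, 2 and 1. PS19/C3aR KO minus PS19 had 3, 9, 6 and 0 in the same order of lists, and DESeq2 called 2, 2, 0 and 0. C3aR KO minus WT had 0 in each list by either count. In the same order of comparisons, 1617, 2416 and 999 of all 16657 genes had such a p. DESeq2 called 0.928%, 2.83% and 0.304% of all genes.

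Markers of several cell types also differed between PS19 and WT, where 7.5% of all tested genes rose and 3.32% fell. All 12 microglial genes rose in PS19 minus WT, with a median of 0.89, and none passed by edgeR elsewhere. At an unadjusted p below 0.05 there were 9 in PS19/C3aR KO minus C3aR KO, 10 in PS19/C3aR KO minus PS19 and 0 in C3aR KO minus WT, and DESeq2 called 2, 4 and 0. Over all 16657 genes, 1617, 2416 and 999 had such a p, and DESeq2 called 0.928%, 2.83% and 0.304% of genes. The microglial genes summed to 366 to 555 CPM in PS19/C3aR KO libraries, 421 to 759 in PS19, 304 to 352 in C3aR KO and 307 to 345 in WT. Of 8 astrocyte genes 7 rose in PS19, with summed levels of 6148 to 7699 CPM in PS19/C3aR KO, 6561 to 10139 in PS19, 5370 to 6209 in C3aR KO and 5442 to 5888 in WT. Of 8 endothelial genes none passed in any comparison by edgeR, DESeq2 or at an unadjusted p below 0.05. Border-associated macrophage genes rose for 2 of 8, with summed levels of 27.5 to 33.6 CPM in PS19/C3aR KO, 28.1 to 56.6 in PS19, 24.8 to 36.6 in C3aR KO and 27.5 to 37.6 in WT. Of 6 monocyte genes 2 reached the filter, and 0 of these passed. Summed levels of the 6 rest largely on those 2. They were 25.01 to 29.5, 29.4 to 35.5, 23.6 to 30.7 and 25.8 to 31.0 CPM in the same order of groups. T and NK cell genes passed for 0 of 3 tested, at 0.960 to 2.15, 0.699 to 2.25, 0.701 to 1.26 and 0.572 to 0.877 CPM, with Gzmb at 0 in all WT libraries. Of 4 tested neutrophil genes 1 rose, Ngp, at 16.0 CPM in PS19 library 3 and at most 0.393 CPM in the other PS19 libraries. Of 8 oligodendrocyte genes 2 rose in PS19 minus WT, Mag and Cldn11, with 6 at an unadjusted p below 0.05. Of 5 oligodendrocyte precursor genes 1 rose, Sox10, and of 8 excitatory neuron genes 1 fell, Slc17a7, with 3 at an unadjusted p below 0.05. In PS19 minus WT, 4126 of all 16657 genes had such a p. Choroid plexus genes passed for 0 of 8, with summed levels of 34.7 to 4345 CPM in PS19/C3aR KO, 75.9 to 4437 in PS19, 26.02 to 3323 in C3aR KO and 36.9 to 2107 in WT. The part of these cell types in the chemokine levels was not tested.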

How the data were processed

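Per the labels' protocols, RNA was isolated on RNeasy columns, sequenced as 76-nt pairs on a HiSeq machine, aligned to mm10 by TopHat 2.0.9 and counted per gene over exons by htseq-count. DESeq2 is named in the submitters' processing notes with no role. The annotation release is not given in the sources used here, nor is the strand setting. The deposited files hold raw counts for 24513 genes, which the authors did not normalize, and 5 summary lines, left out of library sizes. Of uniquely placed pairs, 17.4 to 25.4% fell in no gene and 1.39 to 1.64% were ambiguous. Libraries of 1 genotype differed beyond sampling noise (chi-square per degree of freedom 9 to 109).

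A quasi-likelihood model of edgeR 4.0.16 (R 4.3.3, TMM, filterByExpr with minimum count 10 and minimum total 15) covered 20 libraries and 16657 genes, with no replicate block. Calls used a Benjamini-Hochberg adjusted p below 0.05 over all genes. A standard error is the log2 fold change over the root of its F statistic. CPM are scaled to TMM library sizes, log2 CPM for likeness used a prior count of 2, and exon lengths came from GENCODE vM21. DESeq2 1.42.0 and limma 3.58.1 were alternatives. The fit was tested on simulated data, in which only genes above a set level changed, and by less than the called chemokines did. That test therefore does not bear on the chemokine calls. Members, lists and tests were chosen with earlier results of these data known. Named were all 10 members, Prnp, Mapt and C3ar1, family genes that passed and the receptors of the members, up to 4 called genes with the lowest p per other list, and the 3 genes most like each member. Some genes under this rule are not reported here. Replicate numbers were not taken as pairs.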

Additional observations from a re-analysis of the deposited data

Results flagged for a closer look

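Of 40 sets of 5 libraries (10 chemokines in 4 genotypes), 3 held a library far from the others by Dixon's test, where chance gives about 1 in 20. Ccl12 in PS19/C3aR KO library 1 was 2.815 CPM, and the next highest library of that genotype was at 0.7476 CPM. Ccl4 in C3aR KO library 4 was 0.2754 CPM, and the other 4 libraries lay at or below 0.0835 CPM. Ccl5 in WT library 1 was 0.09201 CPM, from 3 counts, and the other 4 WT libraries lay between 0.1463 and 0.1594 CPM.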

How the results depend on the processing

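In PS19 minus WT, the 7 chemokine calls became 4 with a filter of 1 CPM in 5 libraries and 3 when Rn45s was a covariate. With it Ccl2, Ccl5, Ccl12 and Cxcl10 had adjusted p of 0.0787, 0.215, 0.0727 and 0.127. Leaving out 1 library kept 7. The 6 calls among other ligands and receptors became 9 with DESeq2 on the same 30 genes, or 10 over all 55 in the files. The count was 2 with the Rn45s covariate and 4 to 11 on leaving out 1 library, with 11 without PS19 library 5. In PS19/C3aR KO minus C3aR KO, the 0 chemokine calls became 7 with DESeq2 and ranged from 0 to 5 on leaving out 1 library, and the 0 calls among other ligands and receptors became 3 with DESeq2 and ranged from 0 to 2, with 2 without PS19 library 5. In PS19/C3aR KO minus PS19, the 0 calls among other ligands and receptors became 3 with DESeq2 and ranged from 0 to 2 on leaving out 1 library, with 2 without PS19/C3aR KO library 1. The cause was not tested. All-gene counts on leaving out 1 library ranged from 1 to 105 in PS19/C3aR KO minus C3aR KO, 1190 to 2240 in PS19 minus WT, 6 to 481 in PS19/C3aR KO minus PS19 and 5 to 15 in C3aR KO minus WT.

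Values near 0 changed sign. Cxcl12 ranged from -0.098 to 0.11 in PS19 minus WT and from -0.035 to 0.056 in C3aR KO minus WT on leaving out 1 library. In C3aR KO minus WT, Ccl3 ranged from -0.18 to 0.49, Cxcl16 from -0.091 to 0.089 and Cxcl10 from -0.14 to 0.45 in those fits, and Cxcl10 was -0.38 with the Rn45s covariate.

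The main fit did not pair libraries of the same number. Their deviations correlated from -0.27 to 0.55, and 6 of 20 libraries were closest to one of their own number. With a replicate block, 1 chemokine passed in PS19/C3aR KO minus C3aR KO, Cxcl10 (log2 3.75, edgeR adjusted p = 0.0493), and 2 other ligands or receptors in PS19/C3aR KO minus PS19. The other counts of members and family genes stayed within 1.5 times. All-gene calls moved more in some comparisons. PS19 minus WT had 2105 calls with the block and 1803 without it. PS19/C3aR KO minus C3aR KO had 22 and 1, and PS19/C3aR KO minus PS19 had 212 and 42. C3aR KO minus WT had 14 and 10. Depth limits Ccl4 in the controls, which rests on 20 counts in C3aR KO and 4 in WT.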

Other observations

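Ccl27a, a ligand outside the 10 chemokines that was picked out after its values were seen, averaged 21.0 ± 8.77 CPM in PS19/C3aR KO, 8.54 ± 3.61 in PS19, 17.2 ± 7.72 in C3aR KO and 7.44 ± 2.47 in WT (SD, n = 5 each). PS19/C3aR KO minus PS19 was log2 1.30 (SE 0.34), with adjusted p of 0.0932 by edgeR and 0.0258 by DESeq2. C3aR KO minus WT was log2 1.20 (SE 0.35), with adjusted p of 0.423 by edgeR and 0.194 by DESeq2. Ccl27b, a near-identical copy, was listed at 0 in every library, so the counts of Ccl27a are uncertain.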
